A study of Mus musculus with 6 samples.

Results

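The vascular endothelium of the embryonic mouse ovary was followed through 10 genes that endothelial cells express: Pecam1, Cdh5, Cldn5, Kdr, Flt1, Tek, Tie1, Eng, Emcn and Sox18. They were picked by gene name, as known endothelial genes, from the 35974 gene names of the RNA-seq count matrix. Earlier results of these data were known when the genes were chosen. The counts of all transcripts carrying a name were added together. These 10 genes held 37 of 114412 transcripts, and 35 of the 37 had counts in at least 1 pool. The samples were ovaries of E15.5 embryos of the inbred strain that the labels spell C57Bl6j, in 3 control pools and 3 pools exposed to panobinostat (PB), an inhibitor of histone deacetylases. In the PB group, pregnant mice received 5 mg/kg PB between E6.5 and E15.5, dissolved in DMSO, diluted in water and given by oral gavage. Control mice received DMSO and water alone. Groups were taken from the sample titles and treatment labels, because the design text lists the control libraries too as libraries of exposed mice, under the mouse numbers of the PB libraries. That conflict could not be settled here and bears on every comparison of PB with control. The labels give the dose per day, whereas the study's methods place it on alternate days. A pool held 4 ovaries by the extraction protocol, 6 to 8 by the design text and at least 8 by the methods, and the litters behind a pool were not stated.

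Endothelial cells line the blood vessels that spread through the ovary as it grows, and adhesion and junction proteins hold them to each other. VEGF-A acts on them through the receptor KDR, while FLT1 binds the same ligand with little signalling of its own. The angiopoietins act through the receptor TEK, whose relative TIE1 has no ligand of the same kind and modulates TEK, and endoglin is a coreceptor for BMP9 and BMP10.

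The libraries held 97165644 to 125985399 counts, of which 41026 to 51869 belonged to the 10 genes (0.0408% to 0.0480%). The tissue label was checked against marker genes. Foxl2, the transcription factor of pregranulosa cells, lay between 135 and 166 CPM in the 6 pools (counts scaled to the size of each library), and Ddx4, an RNA helicase of germ cells, between 77.7 and 132 CPM. Control 3 stood apart in Cdh16, a cadherin of kidney and mesonephric tubules, at 14.8 CPM against 1.90 to 3.87 CPM in the other pools. The sum of 7 germ cell markers was lowest in control 2 and PB 2, at 585 and 502 CPM against 784 to 895 CPM elsewhere.

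Each of the 10 genes lay in 1 assembled locus that held no other gene name (mm10). Pecam1 spanned chr11:106654213-106750623 on the minus strand with 15 transcripts, and 77.2% of its counts were on the 9 that carry a RefSeq identifier. For the other genes all counts were on RefSeq transcripts. Their loci were Cdh5 at chr8:104101613-104144504 (+), Cldn5 at chr16:18776847-18778262 (+), Kdr at chr5:75933265-75979074 (-), Flt1 at chr5:147562196-147726005 (-), Tek at chr4:94739289-94874976 (+), Tie1 at chr4:118471191-118489849 (-), Eng at chr2:32646595-32682669 (+), Emcn at chr3:137341061-137431069 (+) and Sox18 at chr2:181669837-181671640 (-).

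In 4 of the genes the counts were divided among RefSeq transcripts that differ inside the coding sequence, and the bases that tell these transcripts apart are given here because the division itself was measured. The sequences are from GENCODE M21 transcripts (GRCm38), 5′ to 3′, and the capitals mark the bases that 1 transcript has and the other lacks. In Tek, 3 bases at the end of exon 14 of 23 (chr4:94851875-94851877, plus strand) are present in NM_013690.3 and absent from NM_001290549.1. The run shown has 18 bases on either side of the difference.
NM_013690.3: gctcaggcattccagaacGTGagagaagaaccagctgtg
NM_001290549.1: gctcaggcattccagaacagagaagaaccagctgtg
In Eng, 3 bases at the start of exon 2 of 15 (chr2:32657516-32657518, plus strand) are present in NM_007932.2 and absent from NM_001146348.1.
NM_007932.2: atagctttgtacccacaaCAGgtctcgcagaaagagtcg
NM_001146348.1: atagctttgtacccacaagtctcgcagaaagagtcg
In Emcn, exon 5 of 12 of NM_001163522.1 is a whole exon of 39 bases (chr3:137403984-137404022, plus strand) that NM_016885.2 lacks.
Emcn exon 5: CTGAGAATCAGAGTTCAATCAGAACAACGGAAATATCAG
In Pecam1, exon 14 of 15 of NM_008816.3 has 57 bases (chr11:106671742-106671798, minus strand) that are absent from NM_001032378.2. A separate exon of 23 bases, exon 15 of 16 of NM_001305157.1 (chr11:106662002-106662024, minus strand), is absent from NM_008816.3.
Pecam1 exon 14 of NM_008816.3: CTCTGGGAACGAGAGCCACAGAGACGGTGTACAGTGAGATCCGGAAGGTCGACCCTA
Pecam1 exon 15 of NM_001305157.1: ATCTCATGGAAAACAGATACTCT

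None of the 10 genes passed the test between PB and control, and 9 of them had a lower fitted level in PB. The test was edgeR's quasi-likelihood F-test over the 19435 genes that passed a filter on low counts, and a gene was called when it differed at least 2-fold at a false discovery rate (FDR) of 0.05 or less. All 10 passed the filter and 0 of 10 were called, and of all genes tested 3 were called (0.0154%). An FDR of at most 0.05, whatever the fold, was reached by 0 of 10 and by 0.0257% of all genes. An unadjusted p under 0.05 was found with edgeR for 2 of the 10 genes, against 4.46% of all genes tested. With DESeq2 it was found for 3 of 10, and the DESeq2 share over all genes was not computed. By direction, edgeR gave 0 of 10 higher and 2 of 10 lower, against 2.03% and 2.43% of all genes. The FDR was 0.894 for Kdr and 0.888 for each of the other genes. The median log2 fold change was -0.17 over the 10 genes and 0.0020 over all genes tested, and it was -0.089 when control 3 was left out. The fitted level was lower in PB in 9 of the 10 genes, as in 49.3% of all genes tested. In bulk tissue, fewer endothelial cells and less RNA per endothelial cell cannot be told apart.

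**Figure D1:**
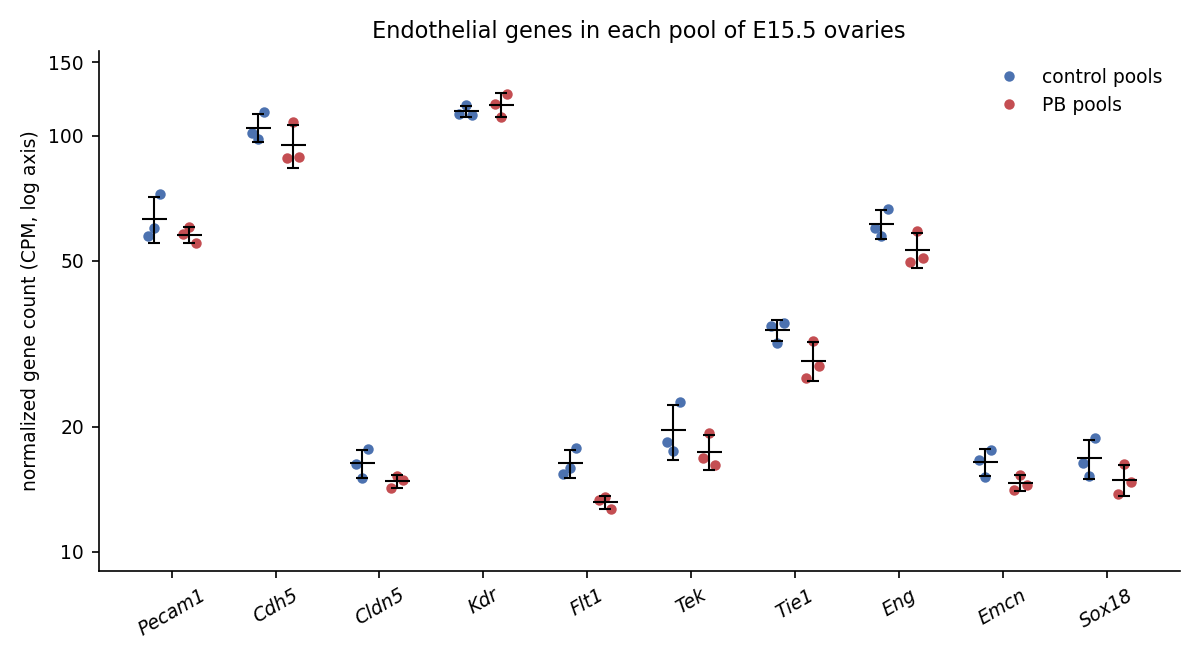
Normalized gene counts (CPM, log axis) of the 10 endothelial genes in each of the 3 control and 3 PB pools; points are pools, the wide line is the mean and the bars are SD. The groups overlapped in 9 of the 10 genes, and in Flt1 the PB pools at 12.6 to 13.6 CPM lay below the control pools at 15.3 to 17.7 CPM.

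The first of these genes code for proteins of the contact between endothelial cells. Pecam1, an adhesion molecule of endothelial cells, platelets and leukocytes, was at 57.2, 59.9 and 72.4 CPM in control 1 to 3 against 57.9, 60.4 and 55.3 CPM in PB 1 to 3. Control 3 was the highest pool and the groups overlapped. Its log2 fold change was -0.13 (SE 0.096), with a 95% confidence interval from -0.36 to 0.10.

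Cdh5, the cadherin of endothelial adherens junctions, was at 101.6, 98.4 and 113.9 CPM in control 1 to 3 against 88.4, 107.8 and 88.7 CPM in PB 1 to 3. PB 2 lay within the control range and the other PB pools below it. With a log2 fold change of -0.14 (SE 0.098), its 95% confidence interval ran from -0.37 to 0.09. Cldn5, the main claudin of endothelial tight junctions, was at 16.2, 15.1 and 17.6 CPM in control 1 to 3 against 14.2, 15.2 and 14.9 CPM in PB 1 to 3. PB 2 lay just above control 2 and the other PB pools below all control pools, and its log2 fold change was -0.14 (SE 0.078, 95% confidence interval -0.33 to 0.04).

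The VEGF receptors differed in sign. Kdr, the main signalling receptor for VEGF-A, was at 112.5, 118.6 and 111.8 CPM in control 1 to 3 against 119.3, 110.9 and 126.1 CPM in PB 1 to 3. The ranges overlapped, and Kdr was the only one of the 10 genes with a higher mean in PB (118.8 ± 7.65 against 114.3 ± 3.71 CPM, SD, n = 3 each). The fit gave a log2 fold change of 0.055 (SE 0.060), with a 95% confidence interval from -0.09 to 0.20.

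Flt1, the other VEGF-A receptor, was at 15.3, 15.9 and 17.7 CPM in control 1 to 3 against 13.3, 13.6 and 12.6 CPM in PB 1 to 3. Every PB pool lay below every control pool, as in 5.61% of all genes tested. Flt1 averaged 16.3 ± 1.25 CPM over control pools and 13.2 ± 0.473 CPM over PB pools (SD, n = 3 each). On the log2 scale the fold change was -0.31 (SE 0.078, 95% confidence interval -0.50 to -0.12), with an FDR of 0.888 by edgeR. Flt1 thus had the lowest unadjusted p of the 10 genes and was not called.

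The ratio of Kdr to Flt1, each per kb of transcript, was computed after the values were seen. It was 8.38, 8.53 and 7.21 in control 1 to 3 against 10.2, 9.35 and 11.4 in PB 1 to 3, so that the groups did not overlap. The mean was 8.04 ± 0.724 in control and 10.3 ± 1.03 in PB (SD, n = 3 each). An exact two-sided permutation test gave p = 0.1, the smallest value that 3 pools against 3 allow, and 0.25 after adjustment over the 5 ratios computed. The other ratios are given with the genes they concern.

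Among the angiopoietin receptors, Tie1 was at 34.9, 31.8 and 35.5 CPM in control 1 to 3 against 26.1, 32.2 and 28.0 CPM in PB 1 to 3. PB 2 lay just above control 2, and the other PB pools lay below all control pools. Tie1 averaged 34.1 ± 1.98 CPM over control pools and 28.8 ± 3.09 CPM over PB pools (SD, n = 3 each). Tie1 was the other gene with an unadjusted p under 0.05, at a log2 fold change of -0.24 (SE 0.092, 95% confidence interval -0.46 to -0.02).

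Tek, the receptor for the angiopoietins, was at 18.3, 17.5 and 23.0 CPM in control 1 to 3 against 16.8, 19.3 and 16.1 CPM in PB 1 to 3. Control 3 was the highest pool and the groups overlapped. For Tek the log2 fold change was -0.17 (SE 0.125, 95% confidence interval -0.47 to 0.13). The ratio of Tie1 to Tek per kb was 2.12 ± 0.230 in control and 2.00 ± 0.113 in PB (SD, n = 3 each, exact permutation p = 0.5).

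Eng, the endoglin coreceptor, was at 60.0, 57.5 and 66.8 CPM in control 1 to 3 against 49.6, 59.1 and 50.9 CPM in PB 1 to 3. PB 2 again lay among the control pools. The fitted log2 fold change of -0.21 (SE 0.090) had a 95% confidence interval from -0.42 to 0.01.

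Emcn codes for endomucin, a sialomucin of venous and capillary endothelium. Its level was 16.6, 15.1 and 17.6 CPM in control 1 to 3 against 14.1, 15.3 and 14.5 CPM in PB 1 to 3, with a log2 fold change of -0.17 (SE 0.079, 95% confidence interval -0.36 to 0.02). Sox18, a transcription factor of endothelial differentiation, was at 16.4, 15.2 and 18.7 CPM in control 1 to 3 against 13.8, 16.3 and 14.7 CPM in PB 1 to 3. For both genes PB 2 lay above control 2 and the other PB pools below all control pools. The log2 fold change of Sox18 was -0.17 (SE 0.104, 95% confidence interval -0.42 to 0.08).

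The 10 confidence intervals together ran from -0.50 to 0.20 on the log2 scale, so none held a 2-fold difference in either direction. The median size of the log2 fold change, sign aside, was 0.169 for the 10 genes and 0.064 for the 10643 genes with a mean of at least 10 CPM. The median SE was also larger for the 10 genes, at 0.091 against 0.073. These 10 values are not separate observations, because most of the genes varied together over the pools. The count of genes with an edgeR p under 0.05 rested on single pools: it was 2 with all pools, 5 without control 2, 4 without PB 2 and 1 when any other single pool was left out.

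**Figure D2:**
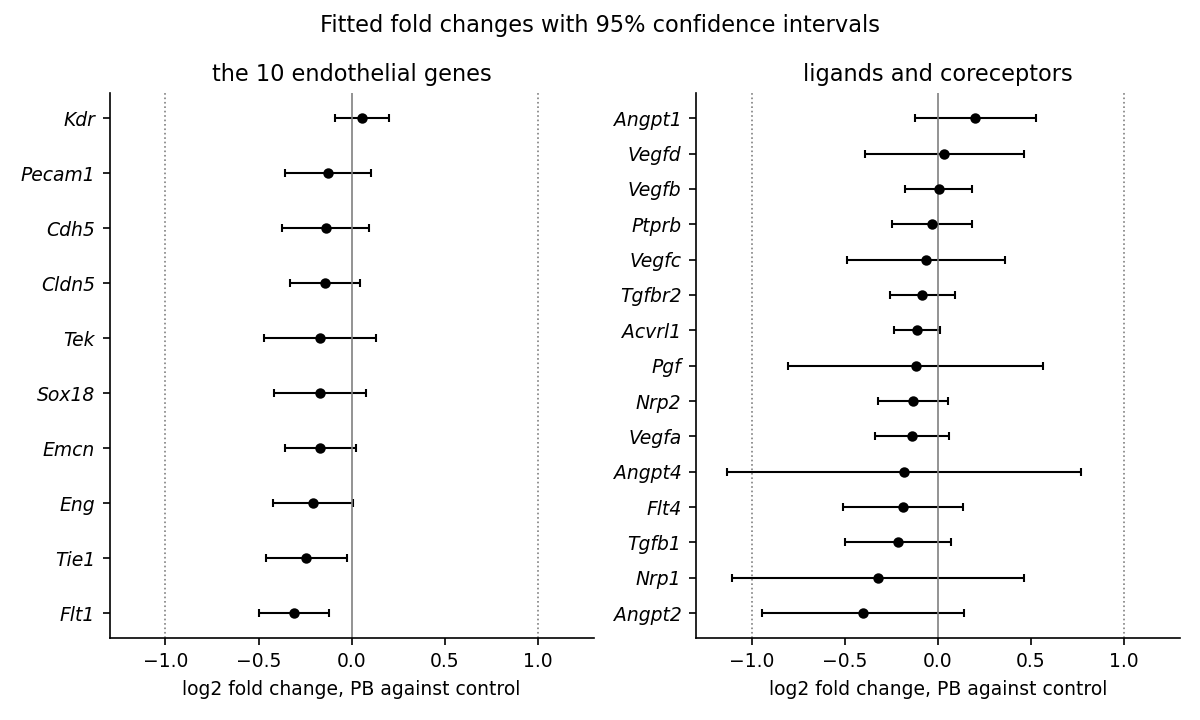
Fitted log2 fold change of PB against control (points) with its 95% confidence interval (bars) for the 10 endothelial genes and for 15 of the 16 ligands and coreceptors tested; dotted lines mark a 2-fold difference. Gdf2 is left out because its interval is too wide for the axis. The intervals of the 10 genes all lie between -0.50 and 0.20.

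The level of a gene was compared with that of another per kb of transcript, as CPM per kb and mean ± SD over all 6 pools. Cdh5 was the most abundant at 25.0 ± 2.57, followed by Kdr at 21.4 ± 1.08, Pecam1 at 18.4 ± 1.85 and Eng at 16.7 ± 1.84. Each of these first 3 exceeded the next gene in 5 of 6 pools, so neighbours in this order were not separated beyond their spread. Cldn5 at 10.98 ± 0.854 and Emcn at 10.7 ± 0.920 also differed by less than their spread. Sox18 was at 9.79 ± 1.06 and Tie1 at 8.10 ± 0.956, with Sox18 above Tie1 in 6 of 6 pools. The lowest were Tek at 3.95 ± 0.523 and Flt1 at 2.37 ± 0.308, and Tek was above Flt1 in 6 of 6 pools. The order of the means thus placed the RNA of Kdr far above that of Flt1, and receptor protein was not measured. The ratio of Cdh5 to Pecam1 was 1.37 ± 0.084 in control and 1.35 ± 0.110 in PB (SD, n = 3 each, exact permutation p = 0.8), and that of Kdr to Cdh5 was 0.802 ± 0.082 and 0.926 ± 0.153 (p = 0.3 by the same exact test).

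Across the pools, 9 of the 10 genes deviated together. On the log2 scale, the mean deviation of the 10 genes from their own averages was 0.043, -0.0042 and 0.203 in control 1 to 3 and -0.137, 0.0104 and -0.115 in PB 1 to 3. Control 3 was the highest pool for 9 of the 10 genes, and PB 2 lay between control 1 and control 2. Pearson's r of each gene with the mean of the others over the 6 pools was 0.83 to 0.98 for 9 genes and -0.77 for Kdr. These 6 points are 3 pools of each group and share the difference between groups, so r is a description. In the same pools, control 3 had the high Cdh16 value and PB 2 the low germ cell sum given above. The part of these pool differences in the endothelial values was not tested.

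**Figure D3:**
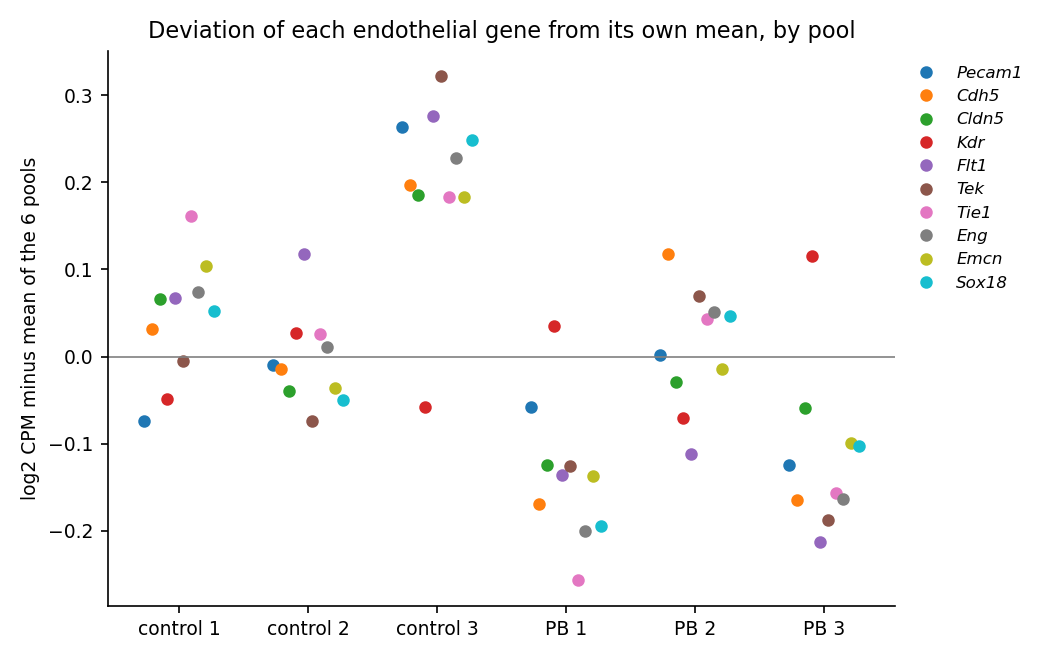
Deviation of each endothelial gene from its own mean over the 6 pools (log2 CPM) by pool, with 1 point per gene. The points of control 3 other than Kdr lie above 0.18, those of PB 1 other than Kdr lie below -0.05, and Kdr runs opposite to the rest.

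The 10 genes whose pattern over the 6 pools was most like the mean pattern of the endothelial genes were, by Pearson's r of log2 CPM, Notch3 (0.994), Stk11ip (0.992), LOC102635844 (0.990), Ptch1 (0.987), Shank2 (0.987), Lrrc45 (0.985), Fzd2 (0.985), Hnrnpl (0.983), Lactb2 (0.979) and Col15a1 (0.976). Notch3, the Notch receptor of vascular mural cells, was on the perivascular list. The genes on a separate list of 22 endothelial markers had a median r of 0.78, and 10 of 22 (45.5%) had r over 0.8. Over all 14771 other genes with a mean of at least 1 CPM the median r was 0.022, and 557 (3.77%) had r over 0.8. Other lists also lay above that background: the median r was 0.64 for 9 perivascular genes (3 over 0.8), 0.58 for 6 arterial genes (2 over 0.8), 0.70 for 3 venous genes (1 over 0.8) and 0.57 for 5 mesonephric genes (1 over 0.8). It was -0.011 for the germ cell list, 0.12 for the pregranulosa list, 0.34 for the interstitial list and 0.35 for the macrophage list. The pattern was therefore not shown to be particular to endothelial genes.

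All 22 other endothelial markers were tested, 0 were called by edgeR or DESeq2, and the fitted level was lower in PB for 22 of 22. Of all genes tested, 49.3% were lower. Many of the 22 genes varied together over the pools, as given above, so they are not 22 separate observations. The list was also chosen with earlier results of these data known, so the count of lower genes is a description. Their median log2 fold change was -0.19, with a range from -0.35 to -0.058, and the median was -0.11 when control 3 was left out. The summed level of the 22 genes was 383 to 426 CPM in the control pools and 343 to 378 CPM in the PB pools. These sums did not overlap. The sum of the first 10 endothelial genes did overlap, at 445 to 495 CPM in the control pools and 414 to 450 CPM in the PB pools. Among single genes, the groups did not overlap, in either direction, for 10.7% of all genes tested. Every PB pool lay below every control pool for 8 of the 22 genes, against 5.61% of all genes tested. Of the 22, 5 had an unadjusted p under 0.05 with DESeq2, whose share over all genes was not computed. With edgeR 4 had one, all lower, against 2.43% of all genes tested.

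These were Egfl7, a secreted protein of the vascular wall (log2 fold change -0.27, 95% confidence interval -0.42 to -0.12), the surface lectin Clec14a (-0.25, from -0.45 to -0.05), the ETS transcription factor Erg (-0.26, from -0.48 to -0.04) and Vwf, the clotting factor carrier. Erg and Clec14a were named after their values were seen, as was Egfl7. Vwf was at 11.5, 10.8 and 10.2 CPM in control 1 to 3 against 8.12, 7.51 and 9.78 CPM in PB 1 to 3. Its log2 fold change of -0.35 (95% confidence interval -0.64 to -0.07, FDR 0.888) was the lowest of the list. The most abundant, Cd93, was at 65.9, 63.6 and 71.1 CPM against 57.5, 68.3 and 58.8 CPM (log2 fold change -0.12), and Esam had the value nearest 0 (-0.058).

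The ligands and coreceptors of these receptors were 17 genes, of which 16 passed the filter. None of the 16 was called and none had an unadjusted p under 0.05 with edgeR or DESeq2, and the fitted level was higher in PB for 4 and lower for 12. The median log2 fold change was -0.12. Vegfa, the ligand of both VEGF receptors, was at 44.8, 49.9 and 47.1 CPM in control 1 to 3 against 47.6, 41.6 and 39.5 CPM in PB 1 to 3 (log2 fold change -0.14, 95% confidence interval -0.34 to 0.06). The groups overlapped through PB 1.

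Vegfb and Pgf, whose products bind FLT1 and not KDR, had log2 fold changes of 0.0060 (SE 0.075) and -0.12 (SE 0.286). Vegfc and Vegfd, whose products act on the lymphatic receptor encoded by Flt4, had values of -0.064 and 0.036, and Flt4 itself had -0.19 (SE 0.134). Of the VEGF coreceptors, Nrp1 was at 31.7, 61.4 and 74.4 CPM in control 1 to 3 against 34.3, 42.5 and 57.2 CPM in PB 1 to 3. Its pools differed more within a group than the groups did, and the log2 fold change was -0.32 (SE 0.328). Nrp2 had -0.13 (SE 0.080).

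Angpt1, the activating ligand of TEK, was at 6.40, 6.18 and 5.16 CPM in control 1 to 3 against 5.93, 6.84 and 7.65 CPM in PB 1 to 3 (log2 fold change 0.20, 95% confidence interval -0.12 to 0.53). Angpt2, the context-dependent antagonist, was at 2.52, 3.08 and 2.34 CPM in control 1 to 3 against 2.25, 2.33 and 1.44 CPM in PB 1 to 3. Every PB pool of Angpt2 lay below every control pool, as in 5.61% of all genes tested. The margin was close to a tie, with control 3 at 2.336 CPM and PB 2 at 2.329 CPM. The log2 fold change of Angpt2 was -0.40 (SE 0.226, 95% confidence interval -0.94 to 0.14). The ratio of Angpt2 to Angpt1 per kb was 0.478, 0.603 and 0.549 in control 1 to 3 against 0.460, 0.413 and 0.228 in PB 1 to 3. These groups also did not overlap, by a narrow margin between control 1 at 0.478 and PB 1 at 0.460. The exact permutation p was 0.1, and 0.25 after adjustment over the 5 ratios. This ratio was not a planned comparison, and it pairs a gene fitted lower in PB with a gene fitted higher, so its separation is only a description. Angpt4 had a log2 fold change of -0.18 (SE 0.398) at under 1 CPM in every pool, and Ptprb, the phosphatase that acts on TEK, had -0.031 (SE 0.089).

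On the endoglin side, Acvrl1, the type I receptor that works with endoglin, was at 30.3, 32.3 and 30.6 CPM in control 1 to 3 against 29.1, 28.7 and 28.5 CPM in PB 1 to 3. All PB pools lay below the control pools by a small margin, with a log2 fold change of -0.11 (SE 0.052, 95% confidence interval -0.24 to 0.01). Tgfbr2 had -0.083 (SE 0.072) and Tgfb1 had -0.21 (SE 0.119). The endoglin ligand genes were scarcely counted in the ovary: Gdf2, the gene for BMP9, stayed at or below 0.651 CPM, with 0 in control 3 and a log2 fold change of 0.23 (SE 1.11), and Bmp10 did not pass the filter.

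Markers of vessel type were examined next, and in the arterial, venous, tip cell and lymphatic lists 0 genes were called and 0 had an unadjusted p under 0.05 with edgeR or DESeq2. Of 7 arterial genes the fitted level was lower in PB for 6 (median log2 fold change -0.091). The most abundant, Efnb2, a ligand of EPHB4, was at 69.2, 73.5 and 82.6 CPM in control 1 to 3 against 14.4, 70.5 and 82.0 CPM in PB 1 to 3. PB 1 alone was low, and Efnb2 is also expressed outside vessels. Gja5 had the highest value of the list (0.14) and Bmx the lowest (-0.45, SE 0.361). Of 3 venous genes the level was lower for 2 (median -0.082), with Ephb4 the most abundant (-0.082), Nr2f2 the highest (0.099) and Aplnr the lowest (-0.13).

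The 3 tip cell genes were all lower (Apln -0.14, Esm1 -0.40, Angpt2 -0.40), and Esm1 stayed at or below 1.13 CPM. All 3 lymphatic genes were higher in PB, Prox1 by 0.28 (SE 0.146), Lyve1 by 0.13 and Pdpn by 0.073. Pdpn, the most abundant, is also expressed by mesothelium. The lists of 3 genes are too short for more than their values.

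**Figure D4:**
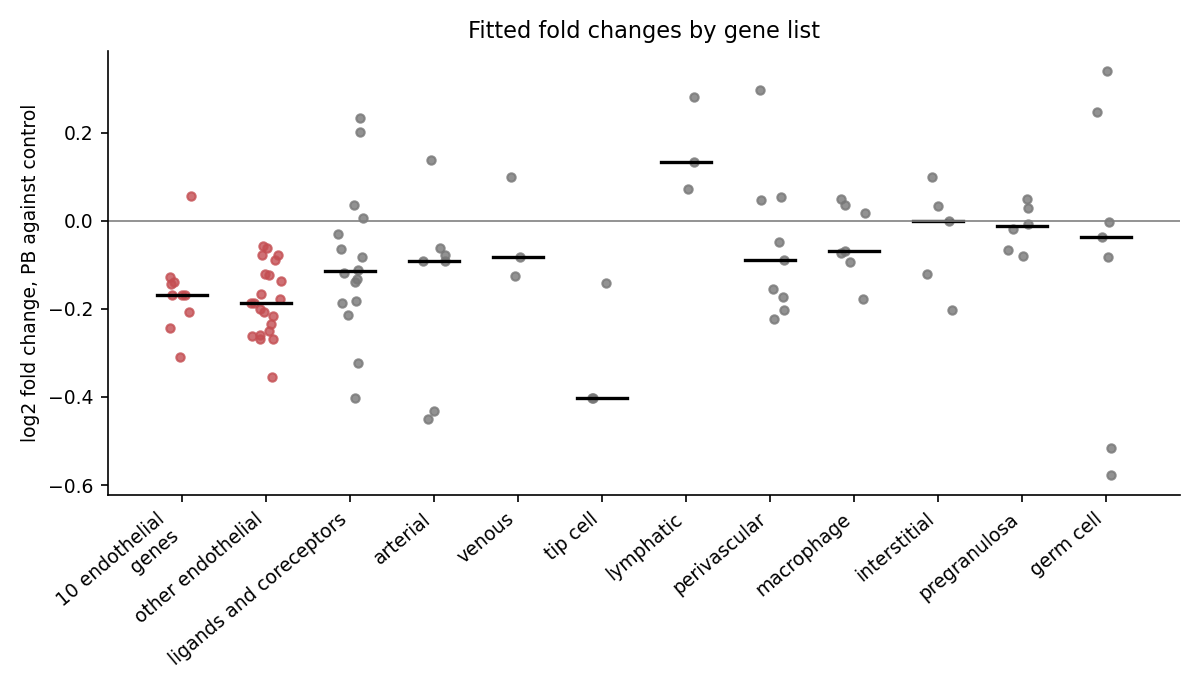
Fitted log2 fold changes of PB against control for the genes of each list drawn (points) with the list median (line). The blood and platelet, red cell and mesonephros lists are not drawn. The 22 other endothelial markers all lie below 0, as do the 3 tip cell genes and, among the lists not drawn, the 7 red cell genes. The medians of the pregranulosa and interstitial lists lie near 0.

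The cells that surround vessels gave a mixed picture. Of 9 perivascular genes 0 were called by edgeR or DESeq2 and 1 had an unadjusted p under 0.05 with either, against 4.46% of all genes with edgeR. Of the 9, 3 were higher and 6 lower (median -0.089), and their sum was 388 to 439 CPM in control and 378 to 437 CPM in PB. Acta2, smooth muscle actin, was at 82.7, 87.4 and 84.7 CPM in control 1 to 3 against 93.7, 119.8 and 99.2 CPM in PB 1 to 3. Acta2 was the highest of the list and, on average, its most abundant gene. Every PB pool lay above every control pool, as in 5.1% of all genes tested, with a log2 fold change of 0.30 (95% confidence interval 0.07 to 0.52, FDR 0.888 by edgeR). Kcnj8, a potassium channel subunit of pericytes, was the lowest at -0.22 (SE 0.111).

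Markers of other cell types of the ovary were measured beside these. Of the pregranulosa, interstitial, macrophage, germ cell and mesonephric lists none of the genes was called by edgeR or DESeq2. An unadjusted p under 0.05 was found for 2 germ cell genes with either tool and for 0 genes of the other 4 lists, against 4.46% of all genes with edgeR. The sum of 6 pregranulosa genes was 782 to 836 CPM in control and 728 to 825 CPM in PB (median log2 fold change -0.012), with Wnt4 the most abundant and the lowest (-0.081) and Lgr5 the highest (0.049). For 5 interstitial genes the sum was 2803 to 3334 CPM in control and 2738 to 3273 CPM in PB (2 higher and 3 lower), with Col1a1 the most abundant (-6.8e-05), Nr2f2 the highest (0.099) and Dcn the lowest (-0.20). For 7 macrophage genes the sum was 75.4 to 84.3 CPM in control and 69.4 to 83.1 CPM in PB (3 higher and 4 lower), with Csf1r the most abundant (-0.074), Mrc1 the highest (0.050) and Adgre1 the lowest (-0.18). The sums of the 2 groups overlapped in each of these lists.

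For 7 germ cell genes the sum was 585 to 794 CPM in control and 502 to 895 CPM in PB (2 higher and 5 lower), with Dazl the most abundant (-0.0031), Sycp3 the highest (0.34) and Pou5f1 the lowest (-0.58). For 6 mesonephric genes the sum was 152 to 165 CPM in control and 143 to 163 CPM in PB (2 higher and 4 lower). Emx2 was the most abundant (0.0075), Pax8 the highest (0.056) and Cdh16 the lowest (-1.26, SE 0.682), the latter through control 3. No marker of these lists was at 0 in any pool.

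Blood within the vessels was also measured, and edgeR called 0 of these genes. All 7 red cell genes had a lower fitted level in PB (median -0.30), with an unadjusted p under 0.05 for 1 of 7 with edgeR and 2 of 7 with DESeq2, but their sum ranged from 15033 to 31933 CPM in control and from 18342 to 20105 CPM in PB. Hbb-bs was the most abundant (-0.27, SE 0.276), Hba-a1 the highest (-0.090) and Hba-a2 the lowest (-0.77, 95% confidence interval -1.45 to -0.09), and Hba-a1 and Hba-a2 are near-identical copies whose split is uncertain. Of 6 blood and platelet genes 5 were lower and 1 higher, with a sum of 67.5 to 69.3 CPM in control and 64.0 to 75.5 CPM in PB. An unadjusted p under 0.05 was found for 3 of these 6 with either tool, and with edgeR they were Itga2b, Kit and Gp1bb. Over all genes tested the edgeR share was 4.46%, and the DESeq2 share was not computed.

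Kit, a receptor also carried by oocytes, was the most abundant of these (-0.29, 95% confidence interval -0.44 to -0.14) and Gp9, a platelet glycoprotein, the lowest (-0.58). Gp1bb was at 2.43, 1.90 and 3.68 CPM in control 1 to 3 against 12.1, 19.5 and 18.1 CPM in PB 1 to 3, with a log2 fold change of 2.63 (SE 0.295) and an FDR of 0.140 by edgeR, while DESeq2 called it. It shares its locus with a septin gene and its counts lay on an assembled transcript there, so that its value is uncertain. The part of blood cells in the Pecam1 values was not tested.

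The division of counts among transcripts was examined last. Of the 37 transcripts of the 10 genes 29 passed the filter, 0 of 29 were called by edgeR (against 0.0332% of all 51227 transcripts tested), 2 had an edgeR p under 0.05 (against 3.56% of all transcripts) and none was called by DESeq2. On simulated counts the edgeR transcript test recovered none of the 4-fold changes placed there, and the DESeq2 version made more false than true calls. A count of 0 called transcripts therefore says nothing about whether these transcripts differ. In 5 of the 29 every PB pool lay below every control pool, and in none above, whereas 9.95% of all transcripts did not overlap in either direction. Kdr, Tie1, Sox18 and Cldn5 had all of their counts on 1 transcript, and Cdh5 had 99.36% to 99.95% on NM_009868.4.

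In Tek, NM_013690.3, the transcript with the 3 additional bases in exon 14, was at 11.6, 10.04 and 14.0 CPM in control 1 to 3 against 7.37, 5.08 and 8.93 CPM in PB 1 to 3. Its log2 fold change was -0.73 (95% confidence interval -1.43 to -0.04, FDR 1.00 by edgeR). NM_001290549.1, without them, was at 6.33, 7.11 and 8.39 CPM in control 1 to 3 against 9.10, 11.4 and 6.98 CPM in PB 1 to 3 (log2 fold change 0.33, 95% confidence interval -0.30 to 0.97). The first lay below control in every PB pool and the second overlapped.

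As a share of Tek counts, NM_013690.3 held 64.5%, 58.5% and 62.4% in control 1 to 3 against 44.7%, 26.9% and 56.1% in PB 1 to 3. The mean share was 61.8% ± 3.03 in control and 42.6% ± 14.7 in PB (SD, n = 3 each). The share of NM_001290549.1 was 38.1% ± 3.10 in control and 53.2% ± 8.55 in PB. Neither share overlapped between the groups, and each had an exact two-sided permutation p of 0.1, the smallest possible. The adjusted permutation p was 0.55 over 11 transcripts, and both Tek transcripts entered that adjustment. Together they held nearly all Tek counts in every pool except PB 2, so a lower share of the first means a higher share of the second. The shares are therefore not separate results. The difference in the share of NM_013690.3 was -19.2 percentage points, and -11.4 without PB 2, where another transcript, XM_006502930.2, took 245 counts. The counts are estimates that StringTie divides among transcripts, and 3 bases at an exon end leave few reads to tell these apart.

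In Eng, NM_007932.2 held 73.5% ± 5.96 of the counts in control and 72.7% ± 5.86 in PB, and NM_001146348.1 held 17.7% ± 4.07 and 23.5% ± 5.35 (SD, n = 3 each, exact permutation p = 0.2). In Emcn, the transcript with the 39-base exon held 77.8% ± 9.63 in control and 84.1% ± 3.62 in PB, and NM_016885.2 held 16.0% ± 4.67 and 12.9% ± 1.08. The groups overlapped for each of these transcripts. In Pecam1, NM_001032378.2 held 10.4%, 34.7% and 35.9% in control 1 to 3 against 30.3%, 28.9% and 15.6% in PB 1 to 3. The share of NM_008816.3 was 2.19%, 23.1% and 21.9% against 25.9%, 26.0% and 9.27%, and that of NM_001305157.1 was 1.53%, 19.3% and 21.7% against 21.6%, 25.3% and 11.8%. Control 1 and PB 3 were the low pools for all 3, so the division differed within the groups more than between them.

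**Figure D5:**
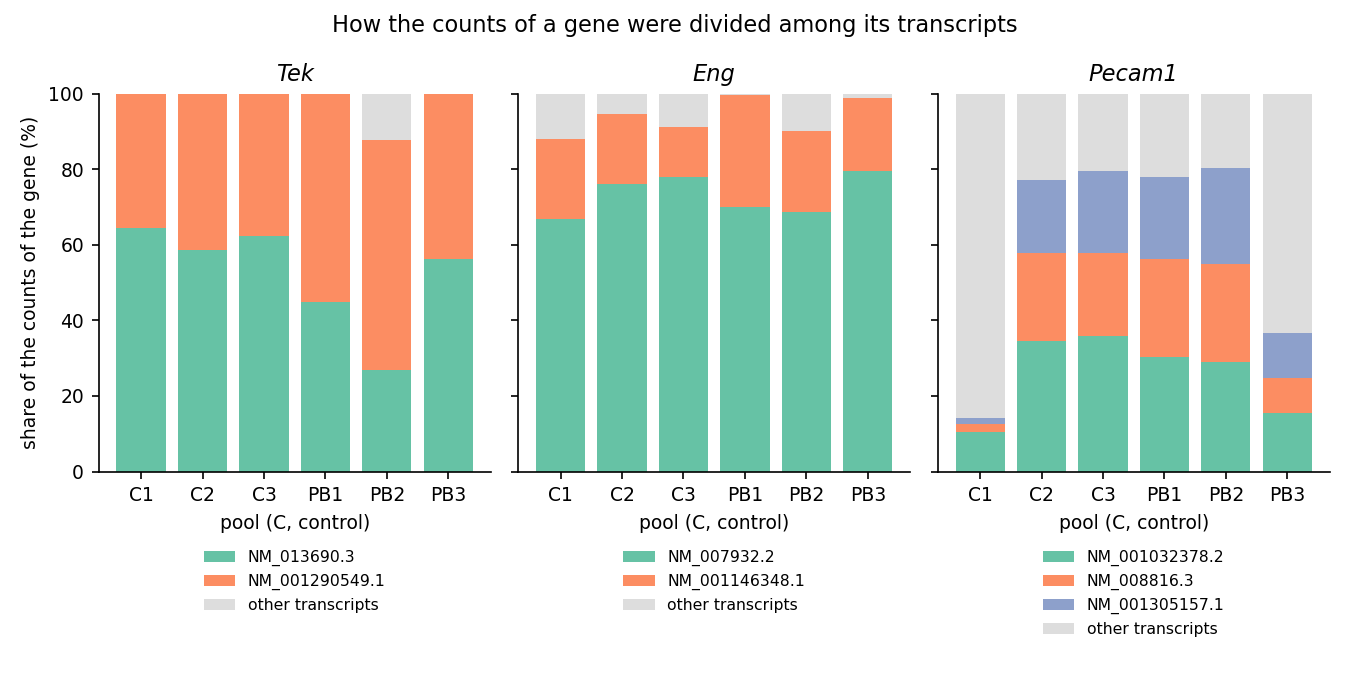
Share of the counts of Tek, Eng and Pecam1 (%) held by named RefSeq transcripts in each pool (C, control); grey is all other transcripts of the gene. The green part of Tek lies at 58.5% to 64.5% in control and at 26.9% to 56.1% in PB, while the Pecam1 bars of C1 and PB3 stand apart within their own groups.

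Flt1 also codes for a soluble receptor made from transcripts that end before the exons of the kinase domain. The deposited annotation held 3 Flt1 transcripts that end before exon 15 of the 30 exons of the longest form. Another shortened form, XM_011241000.2, with 16 exons, ends further along the gene. The first 3 took 47 of 1853 Flt1 counts in control 2 (2.54%) and 1 of 1385 in PB 2 (0.0722%), and 0 counts in the other 4 pools, where a count of 0 allows a share of up to 0.180% to 0.227%. The difference between PB and control was -0.821 percentage points (exact permutation p = 1) and 0.0241 without control 2. With XM_011241000.2 included, a choice made after the values were seen, the shortened transcripts took 1, 47 and 10 counts in control 1 to 3 against 4, 50 and 2 in PB 1 to 3, or 0.0664% to 2.54% and 0.136% to 3.61% of Flt1 counts. The difference then had the opposite sign, at 0.282 percentage points (exact permutation p = 0.8), and was -0.848 without PB 2 and 1.02 without control 2. Control 2 and PB 2 thus held most of these counts, and the groups overlapped. The full-length NM_010228.3 held 97.5% to 99.9% of Flt1 counts in the control pools and 96.4% to 99.9% in the PB pools.

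The promoters of the genes were read for the core letters of ETS factor sites because the ETS family is known to act at many endothelial genes. RefSeq promoter windows (GRCm38.p6, 250 bases before the start) were at hand for 7 of the 10 genes, and Pecam1, Cdh5 and Sox18 were not matched. GGAA, or TTCC on the other strand, occurred 7 times in Tie1, 4 times in Kdr, Flt1 and Emcn, 3 times in Eng, 2 times in Tek and not at all in Cldn5. Over all 27025 promoters 93.4% held at least 1 match, with a mean of 2.91. The longer GGAAG or CTTCC, which contains GGAA or TTCC, occurred 6 times in Tie1, 3 times in Flt1, 2 times in Emcn and Eng and 1 time in Kdr, against a mean of 1.08, and 0.933% of all promoters held at least 5 matches. GATAA or TTATC was in none of the 7 windows and in 23.0% of all promoters. ACAAT or ATTGT was in Tek (2 matches) and Emcn (1 match) and in 28.4% of all promoters.

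The windows of Tie1 and Flt1, the genes with the lowest p, and of Kdr, the only gene with a higher mean in PB, are shown with GGAA and TTCC in capitals. They lie at chr4:118489850-118490099, chr5:147726012-147726261 and chr5:75978456-75978705, all on the minus strand. A match is a description of the letters and not a bound site.
Tie1: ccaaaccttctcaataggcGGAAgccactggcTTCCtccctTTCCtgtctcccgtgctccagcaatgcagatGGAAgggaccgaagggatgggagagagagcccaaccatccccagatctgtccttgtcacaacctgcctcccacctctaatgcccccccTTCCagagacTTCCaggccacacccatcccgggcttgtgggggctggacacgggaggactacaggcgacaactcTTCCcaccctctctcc
Flt1: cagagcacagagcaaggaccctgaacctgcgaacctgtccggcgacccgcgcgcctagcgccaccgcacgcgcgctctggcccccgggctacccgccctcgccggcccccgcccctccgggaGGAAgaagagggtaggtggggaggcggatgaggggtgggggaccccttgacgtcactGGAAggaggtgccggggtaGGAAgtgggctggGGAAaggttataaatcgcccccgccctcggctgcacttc
Kdr: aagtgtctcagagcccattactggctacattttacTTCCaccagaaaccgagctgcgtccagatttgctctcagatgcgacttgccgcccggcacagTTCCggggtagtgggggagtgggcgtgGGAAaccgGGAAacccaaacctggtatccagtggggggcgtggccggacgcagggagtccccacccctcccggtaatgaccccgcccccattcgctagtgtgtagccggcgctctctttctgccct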

How the data were processed

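RNA from pools of E15.5 ovaries, 3 control and 3 PB, was made into stranded paired-end libraries. Per the labels and the study's methods, the authors used bcl2fastq 2.17.1.14, aligned reads to mm10 with HISAT2 2.1.0, built a merged transcriptome on RefSeq with StringTie 1.3.5, and deposited counts per transcript made with prepDE. These counts are derived from coverage, so both reads of a pair add to them. The deposited comparison columns (means, fold changes and p-values of DESeq2 1.30.0) were not used, and only the gene names beside them were taken.

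Counts were summed per gene name. Transcripts without a gene name (1493, holding 3.05% to 4.49% of counts) stayed out. The quasi-likelihood test came from edgeR 4.0.16 (R 4.3.3, limma 3.58.1), with TMM scaling, filterByExpr (minimum count 10, minimum total 15) and Benjamini-Hochberg FDR over all genes or all transcripts. Main results were fitted without a replicate term. CPM are counts scaled to the TMM-adjusted library size, and 3 counts correspond to 0.0257 to 0.0319 CPM. The biological coefficient of variation was 20.9% for genes and 98.4% for transcripts. Floors cover counting error only. Ratios and shares were compared with exact two-sided permutation tests over pools. Scripts were tested on simulated data in which 200 genes or transcripts were changed 4-fold. The gene tests recovered 79.5% (edgeR) and 82.5% (DESeq2) of these, with 8 and 19 false calls, and the transcript test of edgeR recovered none. Smaller changes, such as those fitted for the 10 genes, were not simulated, so the power to find them is not known.

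The 10 genes are all named, with, from each list, every gene called and the most abundant, highest and lowest genes, all tested ligands and coreceptors, transcripts with at least 10% of the counts of a gene, and the 10 genes most alike in pattern. The members and lists were chosen with earlier results of these data known. The ratios were not planned, and how often ratios of other gene pairs separate the groups was not computed. Some ratios and shares were chosen after seeing the data. P-values measure only the spread between pools. Alternatives were DESeq2 1.42.0, DESeq2 size factors, other filters, known transcripts only, sums by StringTie locus, a replicate block and leaving out each pool.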

Additional observations from a re-analysis of the deposited data

How the results depend on the processing

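Over 13 alternatives to the gene sums, 0 of the 10 endothelial genes were called in each, 9 of 10 were lower in PB in each, and none of the 10 changed sign. Their median log2 fold change ranged from -0.239 (without PB 2) to -0.089 (without control 3). The lowest FDR of any of the 10 genes was 0.209 (Tie1, without PB 2), and over the alternatives the FDR of Flt1 ranged from 0.258 to 1.00. The log2 fold change of Flt1 ranged from -0.35 to -0.25 and that of Kdr from 0.0093 to 0.10. The transcript test recovered no change on simulated counts, so its alternatives say nothing about stability. With DESeq2, which made many false calls there, the FDR of the Flt1 transcript NM_010228.3 was 0.0235, at a fold change below 2. The other endothelial markers were lower in 21 or 22 of 22, with 21 without control 3, without PB 3 and with known transcripts only. The ratio of Kdr to Flt1 differed by 2.29 between the groups and by 1.75 to 2.77 when 1 pool was left out. The corresponding range for the Tek share was -26.0 to -11.4 percentage points, and for the early-ending Flt1 share -1.24 to 0.0241. That share changed from -0.821 to 0.282 points when all transcripts that end before the last exon were counted. The counts of lower genes, the Kdr to Flt1 ratio, the Tek share and the wider set of Flt1 transcripts were chosen after seeing the data. Over all genes, 3 were called with edgeR as reported, 0 with the replicate block, 10 with DESeq2, 9 without PB 2, 8 with known transcripts only and 5 without control 1, control 2 or PB 3. Of the transcripts of the 10 genes, 2 had an edgeR p under 0.05 as reported, 4 with DESeq2 and 0 to 5 when 1 pool was left out.

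The pools share replicate numbers in the labels. Pools with the same number correlated at 0.0923, 0.239 and 0.0596 in their deviations from the group means. Control 2 and control 3 correlated best with the PB pool of their own number, and control 1 with PB 3 (0.155). These values do not settle whether the numbers pair the pools. The main fits left the numbers out, and the replicate block is given as an alternative. With the replicate block, 0 of 10 genes were called, the median log2 fold change was -0.165, 9 of 10 genes and 22 of 22 other endothelial markers were lower, and 1 of 10 genes had an edgeR p under 0.05. With 3 pools a group the exact tests could not reach a p below 0.1, and the division of counts among transcripts limits the transcript values.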
